A study of Rattus norvegicus with 48 samples.

Results

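rno-miR-126a-3p, rno-miR-126a-5p and rno-miR-221-3p were followed across 4 kidney segments of the rat, with the balance between the miR-126a arms. The 3 miRNAs were named as miRNAs known from endothelial cells, with earlier results of these data at hand, out of 188 mature miRNAs with values. Small RNA was sequenced from tissue cut by laser out of 8 µm frozen kidney sections of 3 naive male Sprague-Dawley rats aged 6 months. The table held 2 libraries of glomerulus (rats 1 and 3) and 3 libraries for each tubule segment, which are the proximal tubule, the thick ascending limb (labelled Thick Henle Loop) and the collecting duct (rats 1, 2 and 3). Each library was run on 4 flow cells. Tubules were picked by immunofluorescence, the proximal tubule for glutathione S-transferase, the thick ascending limb for Tamm-Horsfall protein and the collecting duct for aquaporin-2. Glomeruli were picked with a histochemical stain, so glomerulus and stain cannot be told apart.

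miR-126 is made from an intron of Egfl7, a gene of endothelial cells, and is among the most abundant miRNAs of the vessel wall. Work in mouse, zebrafish and human cells showed that the 3p arm represses Spred1 and Pik3r2, which raises VEGF signalling, and that the 5p arm represses Dlk1, which holds back endothelial proliferation. miR-221 is made with miR-222 from a cluster on the X chromosome; it is found in endothelium and in vascular smooth muscle, and represses Kit, Cdkn1b and Cdkn1c. The glomerulus is a capillary tuft with mesangial cells and podocytes, and the tubule segments are epithelium with capillaries running between them.

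The mature sequences below are from RefSeq (rat build GRCr8), with the seed, bases 2 to 8 from the 5′ end, in capitals. They are shown because the arms of miR-126a come from 1 hairpin but have different seeds, while miR-221-3p shares its seed with a miRNA that was not analysed here.
rno-miR-126a-3p: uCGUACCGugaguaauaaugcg
rno-miR-126a-5p: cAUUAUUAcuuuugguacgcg
rno-miR-221-3p: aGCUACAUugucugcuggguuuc
rno-miR-222-3p: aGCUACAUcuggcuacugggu

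In GRCr8 the arms lie on the plus strand at chr3:29813219-29813240 (3p) and chr3:29813182-29813202 (5p), 16 bases apart, inside the span of Egfl7. Their longest stretch of complementary bases is 10. No other rat miRNA in the RefSeq table has either seed, and among the 172 of 188 miRNAs of the table that matched a RefSeq sequence the nearest differs from each arm by 9 edits. On the opposite strand, rno-miR-126b, not analysed here, covers 17 of the bases of the 5p arm. miR-221-3p lies on the plus strand at chrX:6023246-6023268. It and miR-222-3p share their first 8 bases and are 6 edits apart, and their hairpins are separated by 458 bases.

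The reads behind the 188 miRNAs were estimated from the step between low values, and came to between 147996 in the rat 3 glomerulus library and 1296993 in the rat 3 thick ascending limb library. The glomerulus library of rat 3 also had the lowest summed value, 77457, against 115865 to 255518 in the other libraries. Results are therefore given with and without it where it changes them. When either glomerulus library is left out, a single glomerulus library remains, and spread between glomeruli does not enter the limma fit. Log2 values alone are given for such limma fits, and a call that held or was lost in them rests on that library. Counts of fits without 1 library include them. As a check of the labels, 7 measured miRNAs of tubule epithelium were summed. The sum was 839 to 1613 in glomerulus libraries, against 21822 to 26857 in proximal tubule, 2865 to 4722 in thick ascending limb and 2443 to 3971 in collecting duct. Most of it was miR-192-5p, with means of 1088, 22626, 3265 and 1791 in these segments. As a share of the summed value of a library, the 7 made up 0.977% to 1.08% in the glomerulus. In the tubule segments, in the same order, they made up 10.4% to 15.4%, 2.00% to 4.08% and 1.33% to 1.55%. Of the 7, 6 were called lower in the glomerulus than in the tubule mean, as were 14.9% of all miRNAs. The other, miR-204-5p, was not called, at log2 0.64 (limma adjusted p = 0.606).

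miR-126a-5p was the higher arm in every library. Its normalized value was 5449 and 3997 in the glomerulus (rats 1 and 3), against 1122, 1228 and 1573 in the proximal tubule. The thick ascending limb had 1458, 1046 and 1308, and the collecting duct 2490, 2858 and 1760 (rats 1, 2 and 3). The glomerulus libraries were both above every tubule library, and the collecting duct libraries were all above those of the other tubule segments. The mean was 4723 ± 1027 in the glomerulus (SD, n = 2), against 1308 ± 236 in proximal tubule, 1271 ± 209 in thick ascending limb and 2369 ± 559 in collecting duct (SD, n = 3 each). By level it was the 7th to 8th of 188 miRNAs in the glomerulus and the 14th to 21st in the tubule libraries, on values that are not corrected for ligation bias between miRNAs.

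As a share of the summed value of a library, miR-126a-5p made up 3.30% and 5.16% in the glomerulus, against 0.707% to 0.753% in proximal tubule, 0.762% to 1.02% in thick ascending limb and 0.941% to 1.35% in collecting duct. In bulk tissue, more endothelial cells and more of the miRNA per cell cannot be told apart.

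miR-126a-3p had a normalized value of 840 and 302 in the glomerulus, against 128, 148 and 228 in the proximal tubule. It had 174, 112 and 153 in the thick ascending limb and 221.96, 313 and 175 in the collecting duct. Here the groups overlapped: the rat 3 glomerulus library, at 302, lay below the rat 2 collecting duct library, at 313. Segment means were 571 ± 381 in the glomerulus (SD, n = 2), against 168 ± 52.9 in proximal tubule, 146 ± 31.3 in thick ascending limb and 237 ± 69.8 in collecting duct (SD, n = 3 each). As a share of the summed value the groups did not overlap, with 0.509% and 0.390% in the glomerulus, against 0.0848% to 0.122% over the 9 tubule libraries.

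**Figure D1:**
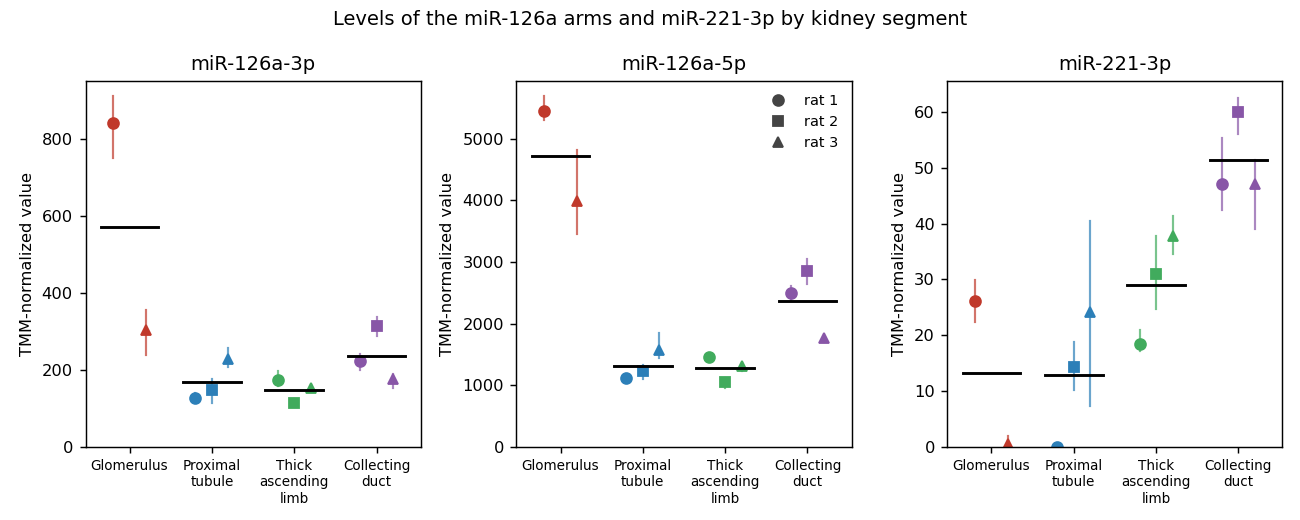
TMM-normalized value of each member by segment; points are libraries (means over 4 flow cells, marker by rat), thin bars the lowest and highest run, and black lines the segment mean. The glomerulus libraries of miR-126a-5p stand above all tubule libraries, those of miR-126a-3p are 840 and 302, and miR-221-3p has its highest values in the collecting duct, at 47.1 to 60.0.

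The same contrast can be read within the rats that gave a glomerulus library. For miR-126a-5p the glomerulus value was 3.22-fold the mean of the tubule segments of the same animal in rat 1 and 2.58-fold in rat 3. For miR-126a-3p it was 4.81-fold in rat 1 and 1.63-fold in rat 3. On shares of the summed value these folds were 3.17 and 6.32 for the 5p arm and 4.66 and 4.02 for the 3p arm, so both arms were higher in the glomerulus in 2 of 2 rats on either scale.

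In limma, fitted to log2(value + 1) with segment and rat over all 188 miRNAs, miR-126a-5p differed among the 4 segments with a Benjamini-Hochberg adjusted p of 0.00472. For miR-126a-3p the adjusted p was 0.0633, which missed the threshold of 0.05. With all libraries 46 of 188 miRNAs (24.5%) passed this F-test. miR-126a-3p passed without the rat 3 proximal tubule library (limma adjusted p = 0.0462), where 36 of 188 miRNAs did. It also passed without the rat 3 glomerulus library, in a fit that rests on the rat 1 glomerulus alone. Against the mean of the tubule segments, miR-126a-5p was 2.97-fold higher in the glomerulus (log2 1.57 ± 0.45 SE, adjusted p = 0.00541 in limma). miR-126a-3p was 2.83-fold higher (log2 1.50 ± 0.52 SE, limma adjusted p = 0.0269). Of all miRNAs, 4.79% were called higher in the glomerulus and 14.9% lower, 9 and 28 of 188.

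The median miRNA was lower in the glomerulus by a log2 of −0.56, so that relative to it the arms stood higher by 2.13 (5p) and 2.06 (3p). This offset depends on scaling: it was −0.20 after rescaling by median of ratios, −0.08 with every library at the same total and 0.02 after quantile normalization, with 25, 31 and 25 miRNAs called higher and 31, 28 and 21 called lower. Both arms were called higher in the glomerulus under all 3 of these scalings.

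The arms differed in how far their calls held. The call of miR-126a-5p held without any 1 of the 11 libraries, at log2 1.37 to 1.77. That of miR-126a-3p was lost without the rat 1 glomerulus library (log2 0.70). It was also lost without the rat 1 proximal tubule library (1.33, limma adjusted p = 0.0775) or rat 2 (1.50, 0.0523). The same held for the rat 1 thick ascending limb library (1.54, 0.0610), and the collecting duct library of rat 1 (1.43, 0.0698) or rat 3 (1.41, 0.0676). Without the rat 3 glomerulus library its value was 2.30, more than 1.5 times that with all libraries. Weights that let the glomerulus libraries spread more ended both calls, with limma adjusted p of 0.155 for the 5p arm and 0.373 for the 3p arm.

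Segment by segment, miR-126a-5p was 3.58-fold higher in the glomerulus than in the proximal tubule (log2 1.84 ± 0.52 SE, limma adjusted p = 0.00426), a comparison in which 3.72% of all miRNAs were called higher. It was 3.67-fold higher than in the thick ascending limb (1.88 ± 0.52, limma adjusted p = 0.00408), in which 3.19% were. The call against the proximal tubule was lost without the rat 1 proximal tubule library (adjusted p = 0.0836). Both calls were also lost with no variance trend (0.0665 and 0.0863) and with weights by segment (0.0542 and 0.0614). Against the collecting duct its difference of 0.99 ± 0.52 did not pass (limma adjusted p = 0.193, 95% interval −0.03 to 2.02), with 3.72% of miRNAs called higher.

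miR-126a-3p gave 1.61 ± 0.60 against the proximal tubule (limma adjusted p = 0.0445) and 1.78 ± 0.60 against the thick ascending limb (0.0309), both called. The first call was lost in 7 of the 11 fits without 1 library. It held without the rat 3 glomerulus, the rat 3 proximal tubule, or the rat 2 or rat 3 thick ascending limb. Without the rat 1 glomerulus library the value was 0.82. The second call was lost in 9 of 11 and held without the rat 3 glomerulus or the rat 3 proximal tubule. Its value was 0.98 without the rat 1 glomerulus library. Both 3p calls were also lost in 4 of 14 other settings, with adjusted p up to 0.252 and 0.253. Against the collecting duct the 3p arm gave 1.11 ± 0.60, not called (limma adjusted p = 0.211, 95% interval −0.07 to 2.29). Without the rat 3 glomerulus library it gave 1.91, which rests on the rat 1 glomerulus alone. After each of the 3 rescalings named above, both arms were called higher in the glomerulus than in the collecting duct, at 1.74 to 1.98 for the 3p arm and 1.51 to 1.87 for the 5p arm. In the order of levels, the call between these neighbours thus depended on scaling.

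**Figure D2:**
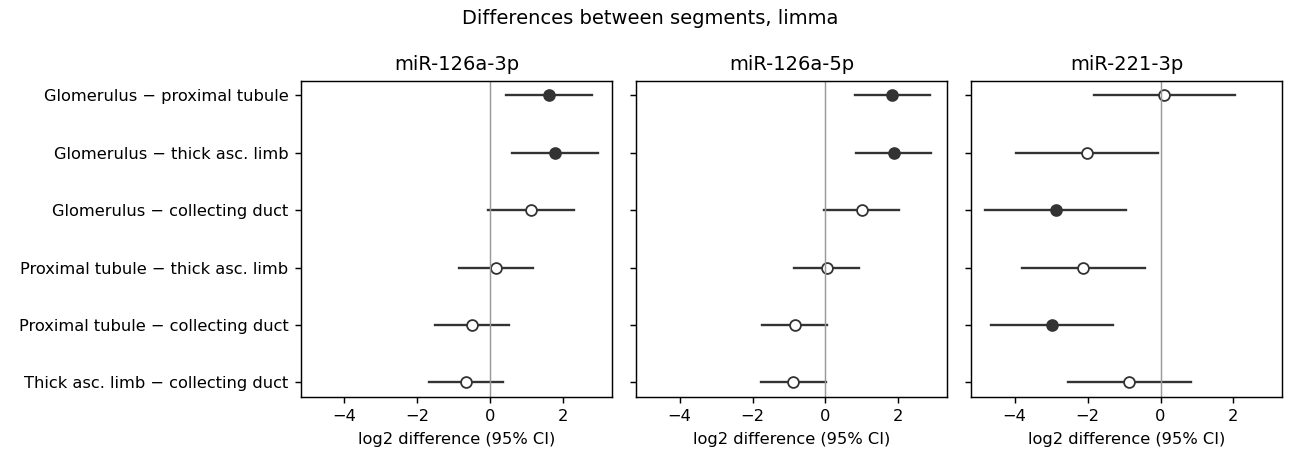
Log2 difference (first minus second segment) of each member for the 6 pairs of segments, with its 95% interval from limma; filled points have an adjusted p below 0.05. The miR-126a arms differ between the glomerulus and the proximal tubule or thick ascending limb, while the called pairs of miR-221-3p are those of the glomerulus and of the proximal tubule with the collecting duct.

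Among tubule segments, the proximal tubule and the thick ascending limb could not be separated for either arm: the log2 difference was 0.04 (95% interval −0.85 to 0.93) for 5p and 0.17 (−0.85 to 1.19) for 3p, with limma adjusted p of 0.981 and 0.911, and 7.98% of miRNAs were called. These small differences changed sign under the other scalings. For miR-126a-5p the proximal tubule minus the collecting duct gave −0.85 ± 0.45 (limma adjusted p = 0.229) and the thick ascending limb minus the collecting duct −0.88 ± 0.45 (0.372), neither called, against 4.26% and 2.13% of miRNAs called lower. With the 9 tubule libraries alone, a choice made after these values were seen, the same differences passed (limma adjusted p = 0.0217 and 0.0252), in fits that called 21.8% and 13.8% of all miRNAs. Leaving out either glomerulus library alone is no further check. The other is then fitted exactly, and the tubule differences are those of the tubule libraries alone. With all libraries, the proximal tubule minus the collecting duct passed after rescaling by median of ratios (limma adjusted p = 0.0149) and quantile normalization (0.0243). It also passed with weights by segment (0.0406). The 3p arm gave −0.51 and −0.67 for these pairs, not called with all libraries (limma adjusted p = 0.599 and 0.647) or with the tubule libraries alone (0.359 and 0.297).

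The arm ratio does not depend on the scaling of a run, because both arms share it. The 3p arm made up 13.4% and 7.03% of the summed arms in the glomerulus, against 10.2%, 10.7% and 12.6% in the proximal tubule. It made up 10.7%, 9.71% and 10.5% in the thick ascending limb and 8.19%, 9.86% and 9.07% in the collecting duct. The lowest and the highest of the 11 libraries were thus both glomeruli, and every tubule library fell between them. Over all libraries the 5p arm was 9.12 ± 1.89-fold the 3p arm (SD, n = 11), with a range of 6.48 to 13.2. The level of this ratio is not corrected for ligation bias between miRNAs.

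The segments could not be told apart by this ratio. Mean 3p shares were 10.2% ± 4.48 in the glomerulus (SD, n = 2), 11.2% ± 1.28 in proximal tubule, 10.3% ± 0.504 in thick ascending limb and 9.04% ± 0.839 in collecting duct (SD, n = 3 each). An exact permutation test of log2(3p/5p), with segment labels moved within rats over 3456 arrangements, gave p = 0.679. The glomerulus against the tubule segments gave an exact permutation p of 0.875, where 0.0625 is the smallest the design allows. In the proximal tubule the ratio was above that of the collecting duct in 3 of 3 rats, by a log2 of 0.35, 0.13 and 0.54, and the exact sign-flip permutation p of 0.25 is the smallest that 3 rats allow.

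Leaving out 1 library changed this result in 1 case: without the rat 1 glomerulus library the exact permutation p among segments was 0.0486. With the tubule libraries alone it was 0.111 over 216 arrangements. The difference between the glomerulus libraries was larger than the spread between runs and than counting error. The 4 runs of the rat 1 library gave 12.4% to 14.4%, and those of the rat 3 library 6.11% to 8.10%. On estimated reads, 4096 of 3p and 26594 of 5p gave 13.3% in rat 1 (exact 95% interval 12.97 to 13.73), and 579 and 7648 gave 7.04% in rat 3 (6.49 to 7.61). Such intervals hold counting error alone, because PCR copies of 1 molecule are counted as separate reads.

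**Figure D3:**
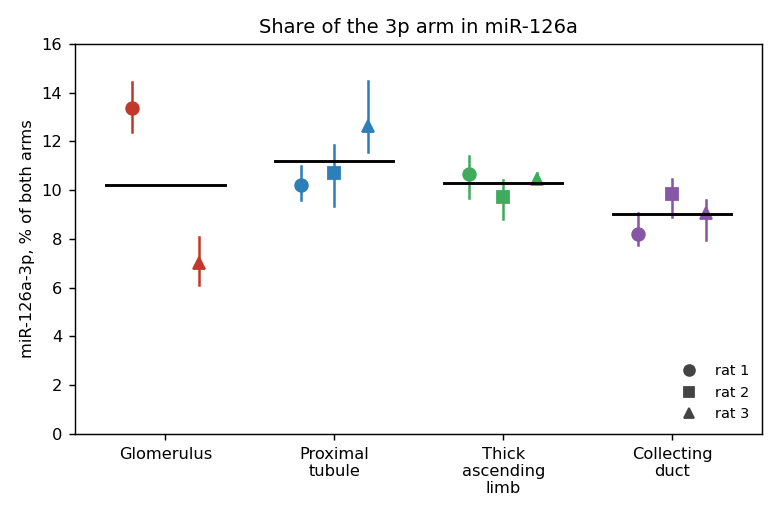
miR-126a-3p as a percentage of both miR-126a arms, by segment; points are libraries (marker by rat), thin bars the lowest and highest of 4 runs, and black lines the segment mean. The 2 glomerulus libraries, at 13.4% and 7.03%, are the highest and the lowest of the 11.

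Beside other miRNAs, the arm ratio of miR-126a varied little from segment to segment. Both arms were measured for 30 stems, of which 23 had the higher mean in the 5p arm and 7 in the 3p arm. The segment medians of log2(3p/5p), with 1 added to each arm, spread by 0.27 for miR-126a, the narrowest of the 30, followed by 0.33 for miR-30d. The median spread over stems was 1.48, and the widest were 3.24 for miR-653, 2.95 for let-7e and 2.70 for miR-99b, which had an arm at 0 in 6, 4 and 5 libraries. Counting error is larger for a weak arm, and in 5 stems both arms averaged at least 100. Among these miR-126a was again the narrowest, against 0.84 for miR-423, 1.19 for miR-30a, 1.47 for let-7d and 1.94 for miR-30e. In the same 5 stems, however, miR-126a had the largest difference between the glomerulus libraries of rats 1 and 3, at a log2 of 1.03. The median of 2 glomerulus libraries lies midway between them, so the narrow spread of medians does not carry that difference.

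**Figure D4:**
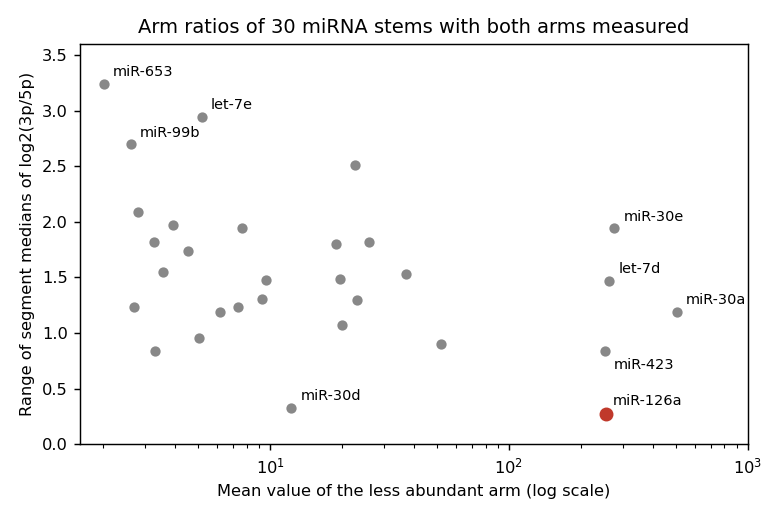
Range of the 4 segment medians of log2(3p/5p) for 30 stems with both arms measured, against the mean value of the less abundant arm (log axis). miR-126a, in red, has the narrowest range, 0.27, and the widest ranges belong to stems whose weaker arm has a low mean.

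miR-221-3p had much lower values and another order of segments. It had 26.1 and 0.483 in the glomerulus, against 0, 14.3 and 24.2 in the proximal tubule. The thick ascending limb had 18.4, 31.01 and 37.8, and the collecting duct 47.1, 60.0 and 47.1. The collecting duct libraries were all above the other 8, of which the highest had 37.8, and the low end was shared by the glomerulus of rat 3 and the proximal tubule of rat 1. Means were 13.3 ± 18.1 in the glomerulus (SD, n = 2), against 12.8 ± 12.2 in proximal tubule, 29.1 ± 9.88 in thick ascending limb and 51.4 ± 7.47 in collecting duct (SD, n = 3 each).

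The low values rest on few reads. The glomerulus library of rat 3 held 1 estimated read of miR-221-3p, in 1 of its 4 runs (exact Poisson 95% interval 0.0253 to 5.57), where the share of the rat 1 library would give 22.7. The proximal tubule library of rat 1 held 0 in all 4 runs (interval 0 to 3.69), where the shares of rats 2 and 3 would give 44.7 and 70.0. Spread between animals is not part of these intervals. The collecting duct libraries held 194, 185 and 158 reads.

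miR-221-3p differed among segments in limma (adjusted p = 0.00597), but the call was lost without the rat 1 collecting duct library (adjusted p = 0.0672). It was 7.84-fold lower in the proximal tubule than in the collecting duct (log2 −2.97 ± 0.85 SE, limma adjusted p = 0.00805), in a comparison that called 4.26% of miRNAs lower. Without the rat 1 proximal tubule library, which is at 0, the difference was −1.36 and the call was lost (adjusted p = 0.483); it was also lost without the rat 1 collecting duct library (−2.80, 0.0990), and in 8 of 15 other settings (adjusted p up to 0.171), all 3 rescalings among them. The collecting duct against the mean of the other segments gave 2.23 ± 0.72 (limma adjusted p = 0.0211), with 10.6% of all miRNAs higher. That call was lost in 7 of the 11 fits without 1 library. It held without the rat 1 glomerulus, the rat 2 or rat 3 proximal tubule, or the rat 3 thick ascending limb. Without the rat 3 glomerulus library the value was 1.21. The call was lost in 8 of 15 other settings too (p up to 0.248), again with all 3 rescalings.

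The glomerulus gave no stable direction for miR-221-3p. Against the tubule mean it was −1.60 ± 0.85 (limma adjusted p = 0.184). Without the library of rat 3 the value was 1.46. Without that of rat 1 it was −4.66, which rests on a glomerulus library with 1 estimated read. Without the rat 1 proximal tubule library it was −2.40 (limma adjusted p = 0.0320). The call against the collecting duct, −2.87 ± 0.99 (limma adjusted p = 0.0258, with 11.2% of miRNAs called lower), became 0.19 without the rat 3 glomerulus library. It was lost in 5 further fits without 1 library, those without the rat 3 proximal tubule library (adjusted p = 0.0590), the thick ascending limb libraries of rats 2 (0.0707) and 3 (0.0503), or the collecting duct libraries of rats 1 (0.135) and 3 (0.0883). Of 14 other settings 8 ended it, the 3 rescalings included (adjusted p up to 0.355). Against the proximal tubule the value was 0.10 (95% interval −1.84 to 2.04, limma adjusted p = 0.953). It was −2.96 without the rat 1 glomerulus, 3.16 without the rat 3 glomerulus and −1.78 (adjusted p = 0.267) without the rat 1 proximal tubule. Against the thick ascending limb it was −2.02 (−3.95 to −0.08, adjusted p = 0.185). There it was −5.08 without the rat 1 glomerulus and 1.04 without that of rat 3. So miR-221-3p was not among the miRNAs called higher in the glomerulus, unlike both arms of miR-126a; the cell type that carried it was not measured.

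Between the tubule segments, miR-221-3p in the proximal tubule was −2.12 ± 0.85 against the thick ascending limb, not called (limma adjusted p = 0.119). It was called without the rat 3 proximal tubule library (−3.28, limma adjusted p = 0.0321). It was also called with the tubule libraries alone (0.0194), where 20.7% of miRNAs were. Fits without 1 glomerulus library repeat that comparison and are no further check. The thick ascending limb against the collecting duct gave −0.85 ± 0.85 (limma adjusted p = 0.764, 95% interval −2.53 to 0.82). The order was thus collecting duct, thick ascending limb, then glomerulus and proximal tubule, and of these neighbours none differed past the threshold.

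The miRNAs closest to each member were ranked by the correlation of log2(value + 1) over the 11 libraries, among 65 miRNAs with a mean of at least 100. These points share libraries, rats and normalization factors, and the values are descriptions. For miR-126a-3p the closest was its own 5p arm (Pearson r = 0.934, Spearman rho = 0.964), then miR-143-3p (0.908 and 0.791), a miRNA of smooth muscle and mesangial cells, and miR-27b-3p (0.902 and 0.873), a miRNA with roles in vessel sprouting. For miR-126a-5p the closest was miR-27b-3p (0.941 and 0.927), then the 3p arm and miR-23a-3p (0.915 and 0.836). Over the 9 tubule libraries alone, r of the arms with each other was 0.922 and that of miR-126a-5p with miR-27b-3p was 0.935, while that of miR-126a-3p with miR-143-3p was 0.657.

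miR-27b-3p had 13077 and 7026 in the glomerulus, against 2726, 3194 and 3659 in the proximal tubule. It had 4452, 2817 and 4782 in the thick ascending limb and 7449, 7580 and 5003 in the collecting duct. Its glomerulus library of rat 3 lay below 2 collecting duct libraries, as that of miR-126a-3p lay below 1, and its difference from the tubule mean was 1.10 ± 0.46, not called (limma adjusted p = 0.0738). miR-143-3p, with 16324 and 10321 in the glomerulus against 4760 to 8072 over the tubule libraries, gave 0.95 ± 0.46 and was not called either (limma adjusted p = 0.130), and miR-23a-3p gave 1.39 ± 0.57 (limma adjusted p = 0.0715). All of them were called higher in the glomerulus after each of the 3 rescalings, with no replicate block, with the rat as random effect and without the rat 3 glomerulus library. The settings that called them other than those leaving out 1 library were 6 of 14 for miR-27b-3p (lowest adjusted p 3.47e-06), 6 of 14 for miR-23a-3p (6.46e-05) and 5 of 14 for miR-143-3p (9.35e-06).

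**Figure D5:**
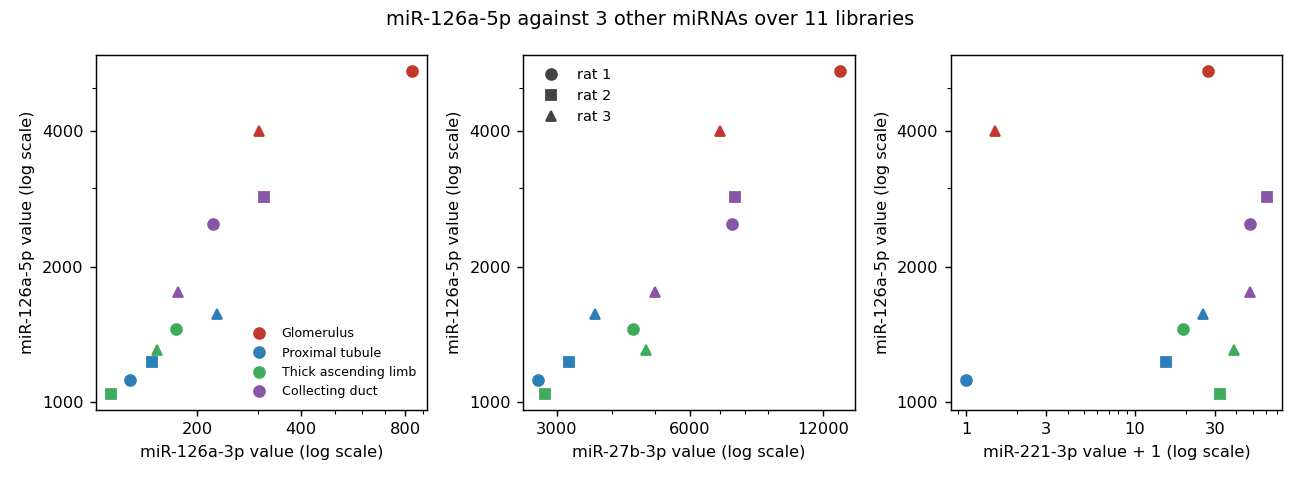
miR-126a-5p value (log axis) against miR-126a-3p, miR-27b-3p and miR-221-3p (log axes, 1 added to miR-221-3p), with 1 point per library, coloured by segment and marked by rat. The first 2 panels rise together (r = 0.934 and 0.941), while the third has r = 0.017 over all libraries and 0.564 over the 9 tubule libraries.

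Over the 11 libraries, miR-221-3p had r = 0.116 against the 3p arm and 0.017 against the 5p arm, with a rho of 0.291 for each. Over the 9 tubule libraries alone, r was higher, at 0.492 against the 3p arm and 0.564 against the 5p arm. The closest to miR-221-3p were miR-10a-5p (r = 0.813, rho = 0.827), miR-125a-5p (0.801 and 0.809) and miR-423-3p (0.759 and 0.836). miR-10a-5p, the HOX-cluster miRNA, had 37565 and 14049 in the glomerulus, against 37747 to 56750 in proximal tubule, 56313 to 85747 in thick ascending limb and 81729 to 119558 in collecting duct, so its lowest library was also the glomerulus of rat 3 and its highest 2 were collecting ducts.

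Other miRNAs known from endothelium and vessel growth went both ways. Of 21 listed, 16 were measured, miR-27b-3p and miR-23a-3p among them. Against the tubule segments 1 was called higher in the glomerulus, miR-23b-3p (log2 2.37 ± 0.64, limma adjusted p = 0.00257), from the cluster that also makes miR-27b. It had 375 and 132 in the glomerulus libraries, against 24.8 to 68.1 over the tubule libraries. Its call was lost without the rat 1 glomerulus library and in 1 of 14 other settings (limma adjusted p = 0.155). Called lower were 4, namely miR-10a-5p (−1.57, adjusted p = 0.0156), miR-210-3p (−2.53, 0.0442), miR-218a-5p (−2.71, 0.0471) and miR-31a-5p, which was at 0 in both glomerulus libraries. The calls of the first 3 were lost in 3, 8 and 8 of the 11 fits without 1 library. These 1 and 4 of 16 stand beside 4.79% of all miRNAs called higher and 14.9% called lower, and the median of the 16 was −0.55, against −0.56 over all 188.

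Markers of other cells were measured beside the arms, and their part in the results on the arms was not tested. Of 7 listed miRNAs of smooth muscle, pericytes and mesangial cells 4 were measured. They summed to 10395 to 16461 in the glomerulus, against 6221 to 8164 in proximal tubule, 4835 to 6238 in thick ascending limb and 6806 to 8149 in collecting duct; 0 of 4 were called higher and miR-199a-3p was called lower (−2.69, limma adjusted p = 0.000326), beside 4.79% and 14.9% of all miRNAs. The call of miR-199a-3p was lost without the rat 3 glomerulus library (−1.39) and with weights by segment (limma adjusted p = 0.0717). Most of the sum is miR-143-3p, with a mean of 13323 in the glomerulus. Of 8 listed blood cell miRNAs 2 were measured, miR-142-5p and miR-150-5p, and the others, the red cell miRNAs miR-451 and miR-144 among them, were not analysed here. The sum of the 2 measured was 78.7 to 117 in the glomerulus, against 24.1 to 51.6 in proximal tubule. It was 25.1 to 39.0 in thick ascending limb and 73.0 to 118 in collecting duct. Neither was called higher or lower in the glomerulus than in the tubule mean. Among the 4 segments miR-150-5p was called (limma adjusted p = 0.0353), as were 24.5% of all miRNAs, and miR-142-5p was not.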

How the data were processed

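The deposited table holds a normalized signal per run and miRNA, made by the authors from read counts by TMM scaling with a filter on low counts, per the name of their file. Partek 6.0, Bowtie2 2.2.5, Bowtie 1.0.0 and the genome build rn6 are named per the submitters' processing notes, and their settings are not given in the sources used here. The libraries were TruSeq small RNA, sequenced as single reads of 50 bp (HiSeq2000), per the labels. A further glomerulus library, labelled rat 3 and marked by the submitters as removed, was left out, and no glomerulus library carries the label rat 2.

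Values were averaged over the 4 flow cells of a library, so that n counts rats. Low values lay on steps of 1 read for 88.3% to 99.0% of values up to 30 reads (within 0.03 reads), so reads are estimates and no count test was run. limma 3.58.1 (R 4.3.3) was fitted to log2(value + 1) with segment and rat, a variance trend and Benjamini-Hochberg adjustment over 188 miRNAs. Adding 1 shrinks the fold between low values. A library near 0 pulls down a segment's mean on this log scale, so a fold can also exceed that of the segment means. For miR-221-3p the proximal tubule and the collecting duct had means of 12.8 and 51.4, and the fold on this scale was 7.84. The fit left 5 residual degrees of freedom per miRNA and shared 1 variance among miRNAs of like level. SE, intervals and p of the main fit rest on this shared variance, pooled over all miRNAs. They do not rest on the 5 degrees of freedom of a miRNA, whose own spread between libraries had no weight of its own. The arm ratio was tested by exact permutation within rats (scipy 1.17.1, numpy 2.4.6), two-sided. Both procedures were tested on simulated data. In the limma simulation all miRNAs and segments had the same spread, so spread that differs by level or by segment was not covered. The rat entered as a replicate block because same-numbered libraries come from the same animal. After segment means were taken off, the 15 same-rat pairs correlated with a median r of 0.083, and 10 were above 0. The 30 different-rat pairs compared had a median r of −0.067. With the rat as random effect, limma estimated a correlation within rats of −0.16.

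Named beside the members were the 3 miRNAs most correlated with each (mean of at least 100), the called members of lists of cell type miRNAs, and the 3 stems with the widest arm ratios. Members and lists were chosen with earlier results of these data known. Sequences were matched by name for 172 of 188 miRNAs. Alternatives were other pseudocounts (0.5 and 5), a minimum mean of 10, 3 rescalings, single flow cells, other uses of the rat, no variance trend, weights by segment, exact permutation, and each library left out.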

Additional observations from a re-analysis of the deposited data

How the results depend on the processing

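Of 176 recomputed values for the 7 main results, 138 kept their direction and side of the threshold, 25 lost the call, 12 gained one and 1 reversed. The lost calls include exact permutation of the glomerulus difference for both miR-126a arms. It could not pass, because 0.0625 is the smallest p that this permutation allows. Where not stated otherwise, p is limma's adjusted p; the causes were not tested.

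miR-126a-3p among segments became called with rescaling by median of ratios (p = 0.000128), the same total (7.73e-05), quantile normalization (0.00279), flow cell B (0.0290) or C (0.0459), no replicate block (0.0261) and the rat as random effect (0.0434); without 1 library p was 0.000158 to 0.201. Its glomerulus difference lost the call with flow cell A (log2 1.28) or D (1.38), no variance trend (1.50), weights by segment (1.49) and exact permutation (1.38, p = 0.0625, the smallest possible), and was 0.70 to 2.30 without 1 library.

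miR-126a-5p among segments was lost with no variance trend (p = 0.143) and exact permutation (p = 0.0677). Its glomerulus difference was lost with no variance trend (1.57, p = 0.0758), weights (1.56) and exact permutation (1.44, p = 0.0625, the smallest possible). Without 1 library the segment test and the glomerulus difference stayed called, and the difference was 1.37 to 1.77.

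miR-221-3p among segments was lost with median of ratios (p = 0.0744), the same total (0.110), quantile normalization (0.138), flow cell C (0.0946) or D (0.110), the random effect (0.0604), no trend (0.256) and exact permutation (0.278), and ran from 3.57e-07 to 0.0672 without 1 library. Its glomerulus difference ran from −4.66 to 1.46 without 1 library. The arm ratio had exact permutation p of 0.0486 to 0.917 without 1 library, and 0.111 to 0.880 otherwise.

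Signs that turned belonged to differences that were not called, apart from that of miR-221-3p with the collecting duct. Between proximal tubule and thick ascending limb, miR-126a-3p gave −0.32, −0.14 and −0.19 and miR-126a-5p −0.45, −0.27 and −0.64 under the 3 rescalings, in the order above, and the 5p arm −0.0048 and −0.034 with flow cells A and D. Without 1 library they ran from −0.26 to 0.51 (3p) and −0.20 to 0.24 (5p). miR-221-3p between glomerulus and proximal tubule gave −0.72 with flow cell B, −0.16 with no replicate block and −0.34 with the random effect, and −2.96 to 3.16 without 1 library; against the thick ascending limb it ran from −5.08 to 1.04, and against the collecting duct from −5.93 to 0.19. miR-125a-5p in the glomerulus turned to 0.018 with quantile normalization and ran from −1.69 to 0.36 without 1 library.

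With 2 glomerulus libraries, 1 of them the shallowest, precision is limited most for miR-221-3p, whose lowest libraries hold 0 and 1 estimated reads.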
